A study of Mus musculus with 6 samples.

Results

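The cytosolic ribosomal protein (RP) genes encode the proteins of the ribosome that translates nuclear messages. Here they are the protein-coding genes whose symbol is Rpl or Rps followed by a number, with Rpsa, Rplp0, Rplp1 and Rplp2, and without the S6 kinases and the genes named as pseudogenes. Of 54446 genes in the table, 84 carried such a name, and 78 of them reached 100 counts in at least 1 library and are described here. They comprise 47 genes of the large (60S) subunit and 31 of the small (40S) subunit. The choice used names and a minimum count, and no difference between conditions.

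The genes were measured by RNA sequencing of bone marrow-derived macrophages (BMDMs) from male BALB/c mice of 6 to 8 weeks of age. Marrow cells had been differentiated for 7 days in DMEM with 10% serum and 20% L929-conditioned medium, which supplies CSF-1. M0 cells then received no polarizing stimulus, M1 cells received LPS at 50 ng/mL together with IFN-γ at 20 ng/mL, and M2 cells received IL4 at 20 ng/mL, each for 24 hours. Each state was sequenced as a DMSO control (ctrl) and after regorafenib (rego), a multikinase inhibitor given at 1 µM from 1 hour before polarization. There was 1 library per condition and 6 libraries in all, and the number of mice behind a library is not given in the sources used here.

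A ribosome holds a single copy of nearly every RP, so the RP genes are known for being transcribed at high and similar levels in all tissues. Their messages typically begin with a C followed by a run of pyrimidines, the 5′ terminal oligopyrimidine (TOP) tract, through which mTORC1 and the RNA-binding protein LARP1 control their translation. Several members have partners of nearly the same sequence, or roles away from the ribosome. RPL5 and RPL11 bind MDM2 when ribosome assembly fails, Rps27l is a p53 target, and RPL13A takes part in the silencing of inflammatory messages in macrophages.

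The starts of the genes that the results turn on are shown first, because the TOP tract is the feature that the family is known to share. Start sites were taken from the RefSeq windows of build GRCm38.p6, which run from 250 bases before to 50 bases after a start and were matched by symbol for 58 of the 78 RP genes. The lines give 10 bases before and 20 bases from the start onward on the strand of the gene, and capitals mark a run of at least 6 pyrimidines counted from its first C. Rps9, Rpl28, Rps27 and Rps21 are shown for a tract at the annotated start. Rps2, Rpl22l1, Rps27l and Rpl10a are shown because they stood apart from the family in the results below, and Rpsa and Rps7 are shown because they were among the lowest in M1 and hold no such run. The run of Rps27l begins upstream of the bases shown. Rpl10a, Rps27l and Rps21 have another annotated start with no such run, which is not shown.
Rps9 (chr7:3704031-3704060, plus strand): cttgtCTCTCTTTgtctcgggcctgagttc
Rpl28 (chr7:4792955-4792984, plus strand): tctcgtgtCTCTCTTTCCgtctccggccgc
Rps27 (chr3:90213629-90213658, minus strand): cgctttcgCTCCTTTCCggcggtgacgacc
Rps21 (chr2:180257369-180257398, plus strand): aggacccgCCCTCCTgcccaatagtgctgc
Rps2 (chr17:24720053-24720082, plus strand): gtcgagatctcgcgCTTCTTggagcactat
Rpl22l1 (chr3:28805498-28805527, plus strand): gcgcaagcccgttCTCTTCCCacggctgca
Rps27l (chr9:66946076-66946105, plus strand): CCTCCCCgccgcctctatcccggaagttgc
Rpl10a (chr17:28328461-28328490, plus strand): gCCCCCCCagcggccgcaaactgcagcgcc
Rpsa (chr9:120127756-120127785, plus strand): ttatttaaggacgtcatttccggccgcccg
Rps7 (chr12:28635934-28635963, minus strand): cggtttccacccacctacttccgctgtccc

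A run of this kind began within 5 bases of an annotated start in 22 of the 58 RP genes (37.9%) and in 10.7% of 27025 genes with a window, where a gene with several starts was counted if any of them had one. Counted by window, it was 22 of 69 (31.9%) against 9.1%. Within 20 bases of a start it was found in 39 of the 58 RP genes (67.2%) and in 32.8% of all genes. The annotated start can lie some bases away from the one used in the cell, so the absence of a run says only that these letters are not in this window. Of the other motifs searched on both strands of the 300 bases, CCGGAAG, the core bound by ETS factors, was in 24 of the 58 RP genes (41.4%) and in 9.93% of all genes. AAGATGGC, the core bound by YY1, was in 6 (10.3%) against 3.19% of all genes. CACGTG, the E-box bound by Myc and its partners, was in 6 (10.3%) against 8.09%, and TATAAA was in 7 (12.1%) against 15.7%. CCGGAAG ends and AAGATGGC begins with AAG, so that 1 stretch can match both, and on its other strand CCGGAAG begins with pyrimidines that can lie in a pyrimidine run. A match is a description of the sequence only.

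The libraries held between 25359309 and 34898342 counts, of which the 10 largest genes took 9.76% to 14.4%. Values below are TMM-scaled CPM, read counts brought to a common library size, and a ratio is the log2 ratio of these values in 1 library against 1 library. Since no condition was repeated, no such ratio has a test, its interval covers counting error only, and a gene is counted as past the fold at 1.5-fold or more. All 9 macrophage markers checked had counts in every library, with a sum of 22533 to 48750 CPM. Markers of B cells, T and NK cells, erythroid cells and mast cells summed to at most 0.228 CPM, dendritic cell markers reached 38.8 CPM in M1, fibroblast markers reached 10.2 CPM and neutrophil markers lay between 84.8 and 158 CPM. In each library 3 to 7 of the 9 neutrophil markers and 1 to 4 of the 7 dendritic cell markers had 0 counts. All 5 fibroblast markers had counts. In bulk RNA, fewer cells with a message and less of the message per cell cannot be told apart.

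The RP genes took a small share of every library, lowest in M1 and highest in M2. They held 2.07% of all counts in M0 control and 2.002% in M0 with regorafenib. In M1 they held 1.21% in control and 1.40% with regorafenib. In M2 they held 2.37% in control and 2.11% with regorafenib. Both M1 libraries lay below the other 4, and the M2 control library lay above all. The scaled sum was 18555 and 17818 CPM in M0, 14721 and 16587 CPM in M1, and 22649 and 19108 CPM in M2, in each case with control first.

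**Figure D1:**
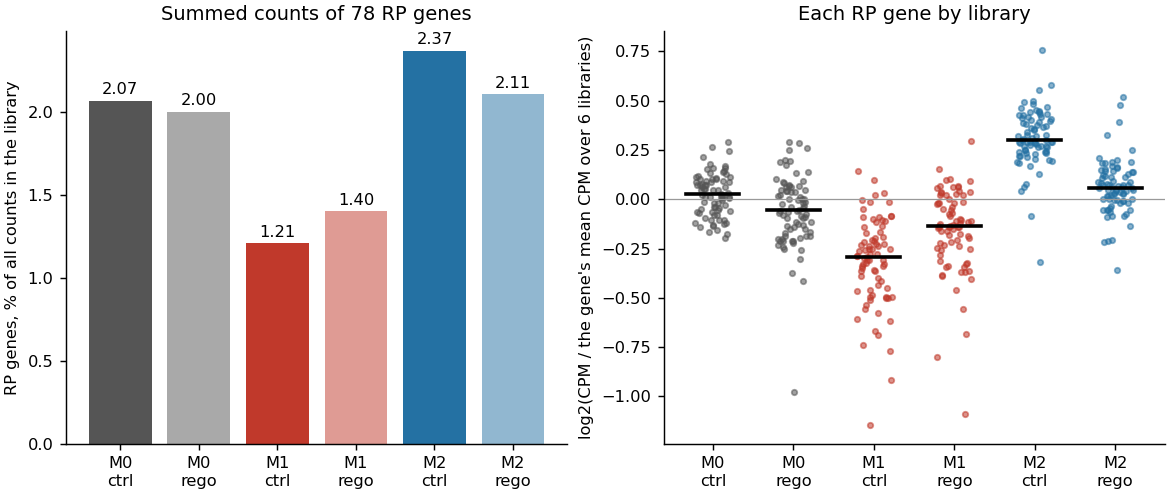
Left, counts of the 78 RP genes as a percentage of all counts in each of the 6 libraries (bars, 1 library each, control dark and regorafenib light). Right, the log2 ratio of each RP gene in a library to its own mean over the 6 libraries (points) with the median (line). M1 control is the lowest and M2 control the highest library in both panels.

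The 2 subunits followed each other. Large subunit genes held 1.15% of the M0 control library and small subunit genes 0.917%. In M1 control these shares were 0.671% and 0.536%, and in M2 control they were 1.32% and 1.06%. The median log2 ratios of the subunits differed by at most 0.05 in each of the 7 pairs of libraries.

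Within the family, levels per kb of the principal transcript spread widely, with a median of 239 CPM per kb over the 78 genes and a range from the 10th to the 90th percentile of 64.9 to 437 CPM per kb. The highest were Rplp1, an acidic protein of the ribosomal stalk, at a mean of 1095 CPM per kb, Rpl10 at 753, Rps29 at 700, Rps12 at 583 and Rps4x at 552. The lowest were Rpl13a at 8.52, Rpl29 at 32.6, Rpl22l1 at 36.9, Rps15a at 38.5 and Rpl7l1 at 42.5 CPM per kb. Rpl22l1 and Rpl7l1 are paralogs of Rpl22 and Rpl7. Rps15a has a principal transcript of 5179 bases in the annotation and Rpl7l1 one of 2606, against 954 for Rps7, so their values per kb depend on that choice.

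Some of the low RP genes overlap other genes, and the part of this in their counts was not tested. Rpl13a had 217 to 391 counts, and 35.4% of its exon bases lay under other genes of the same strand. The 6 names below 100 counts in every library were Rps10 (55 to 93 counts), Rpl24 (4 to 14), Rpl36al (6 to 13), Rpl39l (0 to 9), Rpl3l (0 to 8) and Rpl10l (0 to 1). Rpl24 shared 47.0% of its exon bases with another gene of the same strand, and Rps10 shared 20.6%. Rpl3l, Rpl10l and Rpl39l, which are known from muscle and testis, had no 100-base word in common with genes elsewhere. Fau, the ubiquitin-like fusion that carries RPS30, lies outside the choice by name and had 5987 to 8111 counts.

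The RP genes varied little over the conditions. The highest CPM of a gene over its lowest had a median of 1.57 and ran from 1.19 for Rpl10 to 3.33 for Rps27l. It was under 2 for 67 of the 78 RP genes, and for 49.3% of all 11313 genes that reached 100 counts in some library. M2 control was the highest library for 69 of the 78 and M1 control the lowest for 56. Both M1 libraries lay below the other 4 for 43 of the 78 RP genes (55.1% against 34.8% of all genes) and above them for 1 (1.28% against 28.9%), and both M2 libraries lay above the other 4 for 29 (37.2% against 7.89%).

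M1 control macrophages had lower RP levels than M0 control macrophages, with a median log2 ratio of -0.30 and 67 of the 78 genes below 0. The median over all 11313 genes was -0.06. Of the RP genes, 14 were past 1.5-fold, and all 14 were lower in M1 (17.9% of the 78, where 27.7% of all genes were past 1.5-fold lower and 49.8% past it in either direction). The interquartile range of all genes ran from -0.68 to 0.49 and contained the RP median. The size of this difference depended on the scaling. Scaled by total counts, the RP median was -0.75 and all 78 genes were below 0, while the median of all genes was -0.50. Then 58 of the 78 were past 1.5-fold, where 59.4% of all genes were. Under upper quartile scaling the RP median was -0.17 and 8 of the 78 were past it, where 50.6% of all genes were. Scaling shifts all genes alike, and the RP median lay 0.24 below that of all genes. At 2-fold, 3 RP genes were past it (32.3% of all genes), and at a log2 ratio of 0.32 in either direction 37 were (68.9% of all genes).

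In each pair of values that follows, control comes before regorafenib. Rpl10a, a protein of the L1 stalk, was at 165 and 167 CPM in M0, at 63.0 and 65.3 CPM in M1 and at 182 and 194 CPM in M2. Both M1 libraries were far below the other 4, with no overlap, and M1 against M0 gave a log2 ratio of -1.39 (95% interval -1.47 to -1.31) in control and -1.35 with regorafenib. Rpl3, which lies at the peptidyl transferase centre, was at 293 and 297 CPM in M0, at 129 and 140 CPM in M1 and at 282 and 320 CPM in M2, and its M1 against M0 ratio was -1.19 (-1.24 to -1.13) in control and -1.09 with regorafenib. Rps7 was at 165 and 173 CPM in M0, at 91.5 and 95.1 CPM in M1 and at 202 and 192 CPM in M2. Its ratio was -0.85 in control and -0.86 with regorafenib, so that these 3 genes differed between M1 and M0 by nearly the same amount with and without the drug.

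Rpsa, the laminin-receptor protein of the 40S subunit and the gene of the family with the most counts in the M0 and M2 libraries, was at 881 and 720 CPM in M0, at 421 and 522 CPM in M1 and at 993 and 779 CPM in M2. Its M1 against M0 ratio was -1.07 (-1.10 to -1.03) in control and -0.46 with regorafenib, where the M0 library was lower and the M1 library higher. Rps19, the gene most often mutated in Diamond-Blackfan anaemia, had a ratio of -0.83 in control. Toward the other end, Rps27 had a ratio of 0.19 in control and -0.11 with regorafenib, Rplp2 one of 0.17 and 0.27, Rpl26 one of 0.15 and Rps20 one of 0.14 in control.

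With regorafenib in both states, the median log2 ratio of M1 against M0 was -0.11 and 47 of the 78 genes were below 0. Past 1.5-fold were 7 RP genes (8.97%, where 51.5% of all genes were), of which 6 were lower in M1. The single higher one was Rps27l, with 67.4 CPM in M1 against 31.97 CPM in M0 and a log2 ratio of 1.08 (0.96 to 1.19), while in control it was at 49.8 and 73.1 CPM. Scaled by total counts, the RP median was -0.52 with 75 of 78 below 0 and 31 genes past 1.5-fold, while the median of all genes was -0.48 and 59.5% of them were past 1.5-fold, and with DESeq2's size factors the RP median was -0.04. Over the 24 RP genes with under 20% of their sequence words in other genes, it was 0.13, of the opposite sign.

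The M1 difference could be tested across the treated and untreated pair in an additive fit of state and treatment to the 6 libraries (edgeR's quasi-likelihood test, Benjamini-Hochberg adjusted over all 14110 genes tested). Its 2 residual degrees of freedom measure how the states differ in their response to the drug and not the spread between replicates. In this fit 6 of the 78 RP genes (7.69%) fell in M1 and 0 rose, whereas 36.7% of all genes passed and 18.2% fell. Rpl10a fell by 1.31 on the log2 scale (SE 0.150, adjusted p = 0.00226), Rpl3 by 1.08 (SE 0.160, adjusted p = 0.00478) and Rps7 by 0.80 (SE 0.151, adjusted p = 0.0105). Rpl28 fell by 0.57 (adjusted p = 0.0354), Rps16 by 0.54 (adjusted p = 0.0451) and Rps21 by 0.61 (adjusted p = 0.0476). Rpsa had a log2 change of -0.69 with an adjusted p of 0.0642. Leaving out 1 library at a time left between 2 and 12 RP genes past the threshold (2.56% to 15.4% of the 78, where 28.0% to 34.8% of all genes passed). The 2 that passed in each of these fits were Rpl10a and Rpl3. The 2-gene result came without the M0 regorafenib library, the M1 regorafenib library gave 12 when left out, leaving out M0 control, M2 control or M2 regorafenib left 3, and leaving out M1 control left 3 that fell and Rps27l, which rose.

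M2 control macrophages had slightly more RP message than M0 control macrophages in nearly every gene. The median log2 ratio was 0.30, 76 of the 78 genes were above 0, and the spread among them was narrow (SD 0.13 over the 78 genes, against 0.72 over all genes). The RP median lay above the interquartile range of all genes, which ran from -0.25 to 0.22. No RP gene was past 1.5-fold (0 of 78), where 18.6% of all genes were. At a log2 ratio of 0.32 in either direction 32 of the 78 were past it, where 36.7% of all genes were. The highest ratios were those of Rps27l (0.54), Rpl39 (0.51), Rpl12 (0.49), Rpl23a (0.43) and Rps2 (0.42). The 2 genes below 0 were Rpl22l1 (-0.41) and Rpl3 (-0.05). With regorafenib in both states the RP median was 0.12 with 67 of 78 above 0, and Rps27l was the single gene past 1.5-fold, at 0.62, where 15% of all genes were. In the additive fit, 0 of 78 RP genes passed in M2 against M0 (edgeR's quasi-likelihood test). Of all genes, 28 of 14110 (0.198%) did. At an unadjusted p under 0.05 there were 0 RP genes and 1309 genes in all (9.28%), and DESeq2 called 0 RP genes and 416 in all.

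Regorafenib went with small shifts of most RP genes in M1 and in M2, in opposite directions, and the family showed little shift in M0. In M0 the median log2 ratio of regorafenib to control was -0.06 over the RP genes and -0.02 over all genes, with 51 of 78 below 0. In M1 it was 0.16 against -0.01 over all genes, and 73 of 78 were above 0. In M2 it was -0.27 against -0.04, and 71 of 78 were below 0. Over the 2075 genes with a mean of at least 100 CPM, the median was -0.06 in M0, -0.04 in M1 and -0.115 in M2. In M0 this was the same as the RP median. The RP median in M1 lay above the interquartile range of all genes (-0.17 to 0.14), and that in M2 lay inside it (-0.31 to 0.24). The sign in M0 turned to 0.02 under upper quartile scaling, and the signs in M1 and M2 were the same under all scalings tried.

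**Figure D2:**
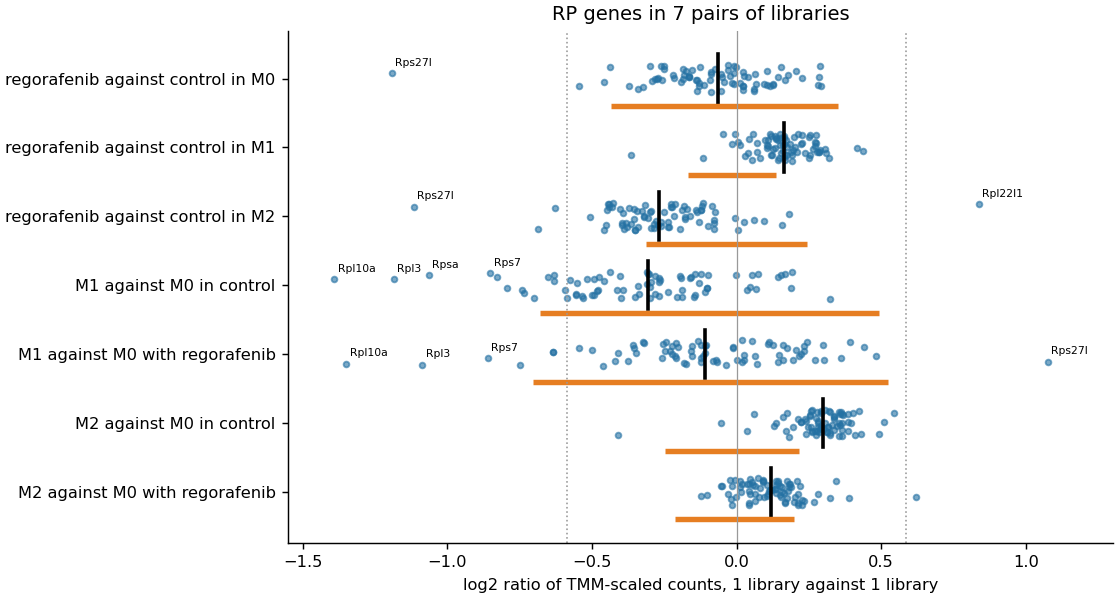
Log2 ratio of each RP gene (points) in 7 pairs of libraries, with the median of the 78 genes (black line), the interquartile range of all 11313 genes (orange bar) and 1.5-fold in either direction (dotted lines). The points are shifted up and down at random. The medians with regorafenib were -0.06 in M0, 0.16 in M1 and -0.27 in M2.

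Few RP genes were past 1.5-fold with regorafenib. There was 1 in M0 (1.28% of 78, where 33.8% of all genes were), 0 in M1 (where 8.54% were) and 4 in M2 (5.13%, where 20.3% were). At 2-fold 1 RP gene was past it in M0 (15.9% of all genes), 0 in M1 (2.92%) and 1 in M2 (7.73%), in both cases Rps27l. At a log2 ratio of 0.32 in either direction, 7 RP genes were past it in M0 (57.2% of all genes), 3 in M1 (21.8%) and 29 in M2 (44.5%). The SD of the ratios over the RP genes was 0.22 in M0, 0.11 in M1 and 0.23 in M2, against 0.84, 0.39 and 0.62 over all genes. Over the genes with a mean of at least 100 CPM it was 0.70, 0.27 and 0.55. In the additive fit, 0 of 78 RP genes passed for regorafenib across the 3 states (edgeR's quasi-likelihood test), and 0 of 14110 genes did. At an unadjusted p under 0.05 there were 0 RP genes and 1637 genes in all (11.6%), and DESeq2 called 0 RP genes and 297 in all. That fit looks for a change common to the states, which the medians of opposite sign were not. The difference between states in the response was not tested, since a full term for it leaves no residual with 1 library per condition.

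Rps27l, a paralog of Rps27 and a p53 target, had the ratio of regorafenib to control farthest from 0 among the RP genes in each of the 3 states. It was at 73.1 CPM in M0 control and 31.97 with regorafenib, at 49.8 and 67.4 in M1, and at 107 and 49.2 in M2, from 1054 to 3889 counts. With regorafenib it was lower in M0 and M2 and higher in M1. The log2 ratio was -1.19 (-1.30 to -1.09) in M0, 0.44 (0.33 to 0.54) in M1 and -1.12 (-1.21 to -1.03) in M2. Across the 3 states the edgeR fit gave -0.62 (SE 0.343, adjusted p = 0.47). Without the M1 control library, or without the M1 regorafenib library, the drug term rests on the same M0 and M2 pairs. The log2 change of Rps27l was then -1.14 in both fits, which are a single result, as each leaves out the pair of opposite direction. None of its 100-base words occurred in another gene. Rps27 itself was at 134 and 163 CPM in M0, at 153 and 152 CPM in M1 and at 159 and 162 CPM in M2, with ratios of 0.28, -0.02 and 0.03, but 98.4% of its words occurred elsewhere, mostly in Rps27rt.

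Rps2, which forms part of the mRNA entry site, was at 186 and 128 CPM in M0, at 135 and 167 CPM in M1 and at 250 and 155 CPM in M2. It had the pattern of Rps27l at a smaller size, with ratios of -0.55 (-0.60 to -0.49) in M0, 0.30 (0.24 to 0.37) in M1 and -0.69 (-0.74 to -0.64) in M2. Rpl7l1, a pre-60S assembly factor related to Rpl7, was at 116 and 85.5 CPM in M0, at 103 and 116 CPM in M1 and at 148 and 96.0 CPM in M2, with ratios of -0.44, 0.16 and -0.63. Rpl7 had ratios of 0.13, 0.14 and -0.08, so the paralog was the lower of the pair in M0 and M2 with the drug. Other low genes were Rpl38 (-0.37 in M0 and -0.46 in M2), Rpl21 (-0.46 in M0) and Rpl29 (-0.51 in M2).

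Rpl22l1, the paralog of Rpl22, went the other way in M2. It was at 21.7 and 23.3 CPM in M0, at 17.8 and 13.9 CPM in M1 and at 16.3 and 29.2 CPM in M2, from 334 to 816 counts. Its ratio was 0.10 (-0.05 to 0.26) in M0, -0.36 (-0.57 to -0.16) in M1 and 0.84 (0.68 to 0.99) in M2, which made it the single RP gene past 1.5-fold higher with the drug. Rpl22 was at 114 and 97.9 CPM in M0, at 106 and 114 CPM in M1 and at 137 and 106 CPM in M2, with ratios of -0.21, 0.11 and -0.38. In M1 and M2 the ratio of Rpl22l1 was of the opposite sign to that of Rpl22. The protein of Rpl22 is known to repress the splicing of Rpl22l1. Of the words of Rpl22l1, 40.6% occurred elsewhere, and 0% of those of Rpl22.

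**Figure D3:**
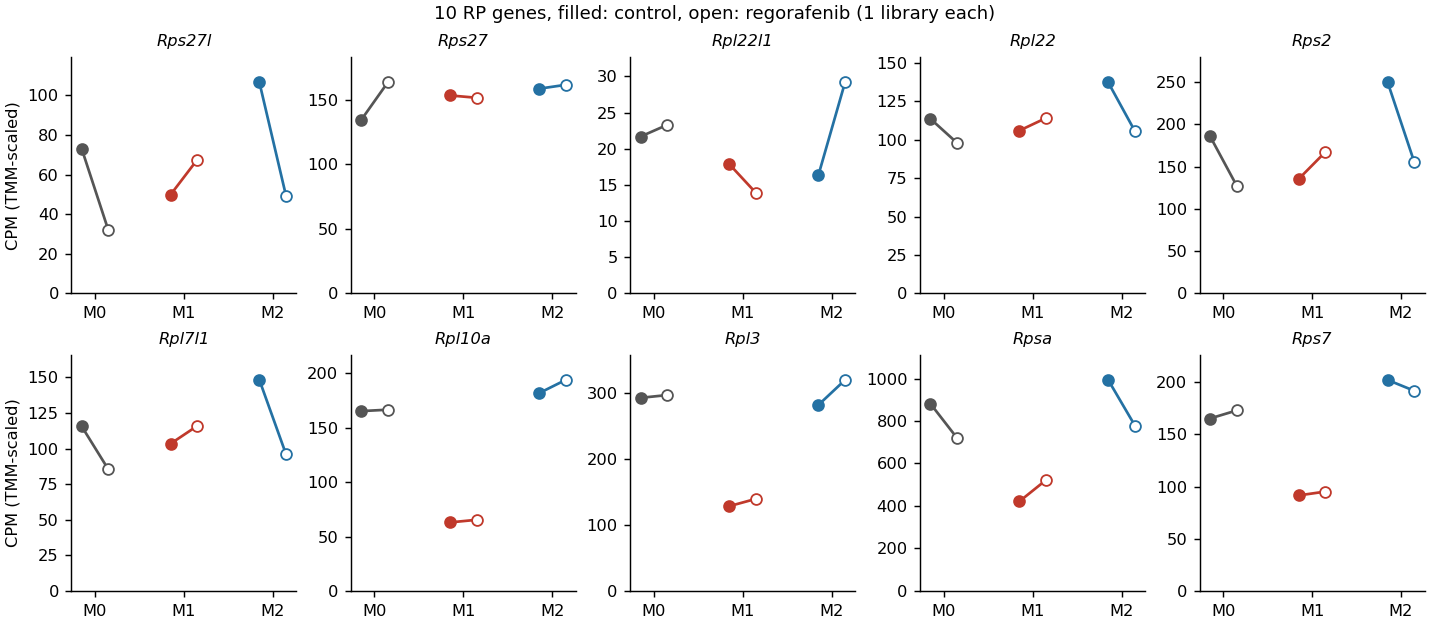
TMM-scaled CPM of 10 RP genes in control (filled) and regorafenib (open) libraries of M0 (grey), M1 (red) and M2 (blue), 1 library per point, with axes from 0. Rps27l, Rps2 and Rpl7l1 were lower with regorafenib in M0 and M2 and higher in M1, and Rpl10a and Rpl3 were low in both M1 libraries.

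The highest ratios with regorafenib were small. In M0 they included those of Rps9 (0.29), Rps27 (0.28), Rpl37a (0.28) and Rpl28 (0.23). In M1 they were those of Rps27l (0.44), Rpl14 (0.42), Rpl35 (0.32), Rpsa (0.31) and Rps2 (0.30), and the lowest with at least 1000 counts was that of Rps15a (-0.12). In M2, after Rpl22l1, they were those of Rpl3 (0.18), Rps20 (0.16), Rpl10a (0.09), Rps9 (0.06) and Rps27 (0.03).

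Other RP genes with known roles of their own had smaller ratios than Rps27l. Rpl5 had ratios of 0.06, 0.22 and -0.12 with regorafenib in M0, M1 and M2, and Rpl11 had -0.16, 0.12 and -0.40. Rps6, the substrate of the S6 kinases, had -0.28, 0.20 and -0.30. The stalk genes Rplp0, Rplp1 and Rplp2 had ratios of -0.05, -0.04 and -0.08 in M0, of 0.25, 0.25 and 0.03 in M1, and of -0.29, -0.24 and -0.25 in M2. Rps27a, the ubiquitin fusion, had -0.26, 0.20 and -0.45. Rpl13a had -0.25 (-0.50 to 0.00), 0.15 (-0.13 to 0.42) and -0.32 (-0.56 to -0.08), wide intervals that came with its few counts.

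The M0 and M2 pairs share no library, and the RP genes took a like order in both. Over the 78 genes, Pearson's r between the ratios was 0.78 and Spearman's rho 0.87, and over all 11313 genes they were 0.69 and 0.71. Without Rps27l they were 0.72 and 0.87. Between M0 and M1 the values were -0.36 and -0.30, against 0.0085 and -0.06 over all genes, and between M1 and M2 they were -0.56 and -0.33, against 0.05 and -0.07. Without Rps27l they were -0.26 and -0.27 between M0 and M1, and -0.50 and -0.30 between M1 and M2. The points are genes of the same libraries, and the 6 libraries were scaled together. Length, mean level and the share of words elsewhere had little relation to the ratios with regorafenib, with Spearman's rho between -0.11 and 0.22 over the 78 genes.

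Genes with and without a pyrimidine run within 20 bases of the start had like medians with regorafenib, and their difference was not tested. Runs lying wholly before the annotated start were counted too, so the groups do not separate TOP messages from others. With regorafenib the 39 genes with a run had a median of -0.09 in M0, 0.17 in M1 and -0.28 in M2, and the 19 genes without one had -0.05, 0.17 and -0.23. In M1 against M0 control the medians were further apart, at -0.35 and -0.21, with ranges that overlapped from -1.07 to 0.15. With regorafenib in both states they were -0.12 and -0.01.

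The genes that build ribosomes had larger ratios with regorafenib than the RP genes. Of 37 ribosome biogenesis genes (RNA polymerase I, snoRNP proteins and assembly factors), 28 were past 1.5-fold lower in M0 (75.7%, where 19% of all genes were) and 28 in M2 (75.7%, where 10.4% were). Their median ratio was -0.79 in M0 and -0.71 in M2, and 0.22 in M1. The lowest in M0 were the snoRNP proteins Nop58 (-1.64) and Dkc1 (-1.44), and Nop56 (-1.40), with 1890, 906 and 2563 counts in control and 652, 359 and 1043 with regorafenib. In M2 the lowest was Rrp12 (-1.11), and in M1 the highest were Rrp9 (0.62) and Rrs1 (0.52). Across the states the edgeR fit called 0 of the 37, with 0 at an unadjusted p under 0.05, as it did for the RP genes, and the direction was again the opposite in M1.

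The 7 chaperones that escort single RPs had median ratios of -0.72 in M0, 0.10 in M1 and -0.44 in M2. In M0 and M2 this lay between the medians of the biogenesis and the RP genes, and in M1 it lay below both. Grwd1, the chaperone of RPL3, had ratios of -1.40, 0.33 and -0.85, while Rpl3 itself had 0.02, 0.12 and 0.18. Tsr2, which escorts RPS26, had -0.90, 0.26 and -0.44, and Aamp, also in this list, had 0.50, 0.10 and 0.07. The 77 mitochondrial RP genes tested had medians of -0.32, 0.16 and -0.40, with 22 past 1.5-fold lower in M0 and 14 in M2 (28.6% and 18.2% of the 77, against 19% and 10.4% of all genes).

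The 22 other genes with TOP messages, most of them of the translation machinery, had medians close to those of the RP genes, at -0.07 in M0, 0.13 in M1 and -0.26 in M2. Nap1l1 is in this list and in that of the chaperones. Members of this list were not alike, as Hnrnpa1 (-1.29), Nap1l1 (-1.05) and Eef1g (-0.84) were lowest and Eif3f (0.65), Eif4b (0.58) and Tpt1 (0.40) highest in M0. Npm1, the nucleolar chaperone, had -0.38, 0.20 and -0.55. Eef1a1, the elongation factor with 57499 to 210363 counts, had -1.13 in M1 against M0 control. In the test of M1 against M0 across both treatments 4 of the 22 passed, where 36.7% of all genes did. Eef1a1 (-1.05, edgeR adjusted p = 0.0177), Nap1l1 (-1.29, adjusted p = 0.0141) and Eif4b (-0.83, adjusted p = 0.0209) fell, and the helicase gene Eif4a2 rose (0.67, adjusted p = 0.0295).

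**Figure D4:**
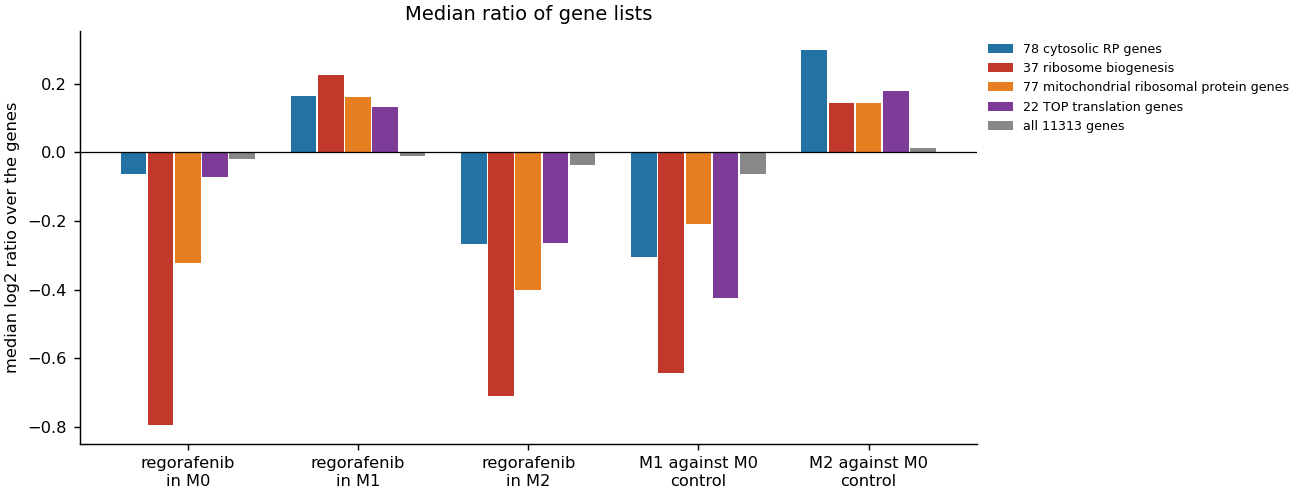
Median log2 ratio over the 78 RP genes, 37 ribosome biogenesis genes, 77 mitochondrial RP genes, 22 TOP translation genes and all 11313 genes (bars) in 5 pairs of libraries, without error bars because there was 1 library per condition. With regorafenib the biogenesis genes had -0.79 in M0 and -0.71 in M2, and the RP genes had -0.06 and -0.27.

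Of the regulators, Myc, which drives ribosome production, had 1142 counts in M0 control and 193 with regorafenib, 1786 and 841 in M2, and 113 counts in M1 control and 104 in M1 with the drug. Its ratio with regorafenib was -2.67 in M0, -0.02 in M1 and -0.70 in M2. In M1 against M0 control it was -3.09. Over the 8 genes of the Myc network with at least 100 counts, Myc among them, the median with regorafenib was 0.61 in M0, -0.19 in M1 and 0.70 in M2. Of these 8, 6 were above 0 in M0 and 7 in M2, opposite to Myc. Among 14 genes of mTORC1 and TOP control, Eif4e, the cap-binding protein, had -1.44 in M0, -0.06 in M1 and -1.25 in M2. Mtor had 0.00, -0.04 and -0.06, and Larp1 had -0.62, -0.03 and -0.31. Higher in M0 were Eif4ebp2, with 0.72, 0.04 and 0.52, and Akt1s1, an inhibitor of mTORC1, with 0.62, 0.08 and -0.05, and of the 14 genes 2 were past 1.5-fold higher and 2 lower in M0, where 14.8% and 19% of all genes were. In M1 against M0, 3 of the 14 passed the edgeR test, where 36.7% of all genes did. Larp1 rose by 0.71 (edgeR adjusted p = 0.0348). Of the inhibitors of Eif4e, Eif4ebp1 rose by 1.72 (edgeR adjusted p = 0.0015) and Eif4ebp2 fell by 0.77 (edgeR adjusted p = 0.034). The median of the 14 genes was -0.10, 0.00 and -0.09 with regorafenib.

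The summed level of 14 proliferation markers differed between the libraries, in part with and in part against the RP genes. It was 3353 and 787 CPM in M0, 249 and 264 CPM in M1, and 1483 and 1315 CPM in M2, and all 14 had counts in every library. In M1 against M0 control the median log2 ratio was -5.15 over the markers and -0.30 over the RP genes, and in M2 against M0 control, where the RP median was 0.30, it was -1.30 with all 14 markers below 0. With regorafenib in M0 the RP sum was 96.0% of its control and the marker sum 23.5% of its own, and in M2 these were 84.4% and 88.7%. The part of proliferating cells in the RP values was not tested.

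Shared sequence bears on how many RP reads could be counted. The median RP gene had 31.2% of its 100-base words in transcripts of genes elsewhere, 23 genes had over 50% and 24 had under 20%. The reads were pairs of 100 bases each, and a pair can be placed by either of its reads. The share of words is therefore not the share of reads left uncounted. The RP genes that fell in M1 spanned this range, from 87.1% for Rpl10a, 79.4% for Rpl3 and 55.9% for Rps7 to 0% for Rps21. Over the 24 genes under 20%, the median ratio with regorafenib was -0.10 in M0, 0.16 in M1 and -0.29 in M2. In M1 against M0 it was -0.25 in control and 0.13 with regorafenib, the latter against -0.11 over all 78. Pseudogenes whose symbols begin with Rpl or Rps held as many counts as 3.78% to 4.22% of the RP sum. RP pseudogenes under other names are not in this share.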

How the data were processed

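RNA was sequenced from BMDMs in 6 conditions with 1 library each, so the groups were compared library against library. The deposited values are raw read counts of each gene, made by the authors with cutadapt 2.4 and STAR 2.7.2a on GRCm38 with Gencode M19. The library kit was stranded, and the strand column taken is not given in the sources used here. Reads that map to several places are commonly left out of such counts, which lowers genes with near-identical copies. Names, positions and transcripts came from Gencode M21. Of 54446 IDs, 53229 matched with their version and 1180 without, and 37 stayed unnamed.

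Counts were scaled with TMM (edgeR 4.0.16, R 4.3.3), with a count of 0 replaced by 0.5. Intervals are 95% conditional exact binomial intervals. The additive fit of state and treatment used edgeR's quasi-likelihood test on genes kept by filterByExpr, at an adjusted p under 0.05, with DESeq2 1.42.0 as an alternative. The scripts were checked on simulated data. Alternatives were other scalings, filters, folds, RP genes with little shared sequence, and leaving out each library. Named genes were, per pair of libraries, the 5 highest and 5 lowest RP genes whose higher library reached 1000 counts, RP genes past 1.5-fold with regorafenib, paralogs and fusions, the 5 highest and 5 lowest per kb, those with most shared words, RP genes with roles of their own, and the ends of each list discussed. Members and lists were chosen with earlier results of these data known. Some genes that this rule names are not reported here.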

Additional observations from a re-analysis of the deposited data

Results flagged for a closer look

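3 RP genes had ratios of regorafenib to control beyond a log2 ratio of 0.32, in opposite directions in different states. For Rps27l the log2 ratio was -1.19 in M0, -1.12 in M2 and 0.44 in M1. Rpl14, a 60S protein, had 0.42 in M1 and -0.38 in M2. Rpl22l1 had -0.36 in M1 and 0.84 in M2. These differences between states were not tested, since each rests on 1 library per condition.

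Outside the 78 genes, 307 pseudogenes whose symbols begin with Rpl or Rps were summed, from 15540 counts in M1 with regorafenib to 34153 in M2 control. RP pseudogenes under other names, such as Gm10288 with words of Rpl11, are not among them. Whether these counts come from the pseudogenes or from RP messages was not tested.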

How the results depend on the processing

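No paired analysis was possible because each condition had 1 library, so that no replicate numbers could be matched beyond the terms for state and treatment that the test already held. With regorafenib in M0 the RP median turned to 0.015 under upper quartile scaling. In M1 against M0 with regorafenib it turned to 0.13 over RP genes with under 20% of words elsewhere. Under total counts it was -0.19 for regorafenib in M2, -0.75 for M1 against M0 in control and 0.21 for M2 against M0 in control. For M1 against M0 in control it was -0.17 under upper quartile scaling and -0.25 over RP genes with under 20% of words elsewhere.

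For M1 against M0 in control, the RP genes past the fold numbered 58 under total counts (59.4% of all genes) and 8 under upper quartile scaling (50.6%). Of the 24 RP genes with under 20% of words elsewhere, 2 were past it there, where 49.8% of all genes were. For M2 against M0 in control, 1 RP gene was past it under upper quartile scaling (18.6%). For regorafenib in M2, 2 of the same 24 were past it, where 20.3% of all genes were. Without the filter on low counts, the RP genes past the fold numbered 3 in M0, 3 in M1 and 7 in M2 with regorafenib (53.5%, 36.5% and 44.7% of all genes). For M2 against M0 they numbered 2 (42.9%). At 2-fold they numbered 1 for regorafenib in M0, 1 in M2 and 3 for M1 against M0. At a log2 ratio of 0.32 they numbered 7, 3 and 29 for regorafenib in M0, M1 and M2, 37 for M1 against M0 and 32 for M2 against M0.

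Leaving out 1 library gave 0 to 1 RP genes past the test for regorafenib, 2 to 12 for M1 against M0 and 0 for M2 against M0. When 1 library of a condition is left out, the fit assumes that the remaining one of its state varies like the others. Leaving aside M1 and M2 against M0 with regorafenib in both states, 91 of 120 alternatives stayed on the same side and within the limits set for a move. For those with regorafenib in both states, 26 of 36 did. For M1 against M0, 8 RP genes passed under DESeq2, 9 under upper quartile scaling, 7 without the filter and 5 without the treatment term, all lower, where 37.1%, 36.9%, 22.2% and 31.1% of all genes passed. Over all genes the edgeR test called 0 for regorafenib, against 297 under DESeq2 and 333 without the filter, and 28 for M2 against M0, against 416, 408 and, without the treatment term, 0. With 217 to 391 counts for Rpl13a and 334 to 816 for Rpl22l1, counting error limits these genes most.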
